A study of Mus musculus with 6 samples.

Results

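The palladin, myotilin and synaptopodin genes encode proteins that bind actin filaments or the actinins that cross-link them, and they were examined here together with the myozenins and telethonin, which are partners of the same actinin-rich structures. The group held 9 of the 20654 genes in the count table, namely *Palld*, *Mypn*, *Myot*, *Synpo*, *Synpo2*, *Synpo2l*, *Myoz1*, *Myoz2* and *Tcap*. The genes were chosen by name, with the measured difference between *Piezo1* cKO and wild-type libraries already known, so their differences between the groups are given as a description. Calls by the fit over all genes are counted for them, but no p-value is given for a member and nothing is read from the calls. RNA-seq was performed on 6 libraries of cultured muscle satellite cells (MuSCs), the stem cells of skeletal muscle, 3 labelled wild type and 3 labelled *Piezo1* cKO. *Piezo1* encodes a mechanosensitive ion channel, and the comparison asks which genes alter their expression when it is deleted. All mice were C57BL/6, and all cells were sorted as VCAM1+, CD31-, CD45- and Sca1- and cultured for 3 d in growth medium with 1 µM 4-hydroxytamoxifen in both groups. The paper also describes tamoxifen injection of the mice, to induce the deletion, before the cells were isolated. According to the methods, the wild-type group also carried the Cre allele (*Pax7* CreERT2/+, *Piezo1*+/+), and the cKO group carried it with both *Piezo1* alleles floxed (*Piezo1* flox/flox), so that tamoxifen-dependent recombination was limited to *Pax7*-expressing cells. Groups are named by their labels throughout, although the counts of *Piezo1* itself were not lower in the libraries labelled cKO. The labels give no age, and the libraries of a group stand for separate mice as far as the study states.

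In striated muscle, palladin, myopalladin (*Mypn*) and myotilin (*Myot*) form a family of immunoglobulin-domain proteins that bind alpha-actinin. Palladin is found along stress fibres and in focal adhesions of many cell types, whereas myopalladin and myotilin belong to the Z-disc, the border of the sarcomere where actin filaments are anchored. The synaptopodins are proline-rich actin-binding proteins, of which synaptopodin 2 (myopodin) and synaptopodin 2-like (CHAP) occur in muscle. Myozenins (calsarcins) tie the phosphatase calcineurin to the Z-disc, and telethonin (*Tcap*) caps the ends of titin.

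The libraries held from 726378 to 931168 counts, and each count stood for 1 cDNA molecule marked by a unique molecular identifier (UMI) and primed at the poly(A) tail. The 9 genes together had 108, 84 and 129 counts in wild type 1, 2 and 3 and 179, 221 and 213 counts in *Piezo1* cKO 1, 2 and 3. Of these 934 counts, 57.3% belonged to *Palld*, 25.9% to *Synpo2l* and 13.7% to *Synpo2*. These were the 3 genes that passed the filter on low counts, and the remaining 6 genes shared 29 counts. Levels are given in CPM, counts scaled to a normalised library of 1e6, in which 1 count corresponded to between 1.12 and 1.44 CPM. Because lengths and priming differ between genes, CPM are compared here between libraries only. Where a list names its most abundant genes, this ranks counts and not transcript levels. In bulk RNA, fewer cells that express a gene and less RNA per cell cannot be told apart.

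**Figure D1:**
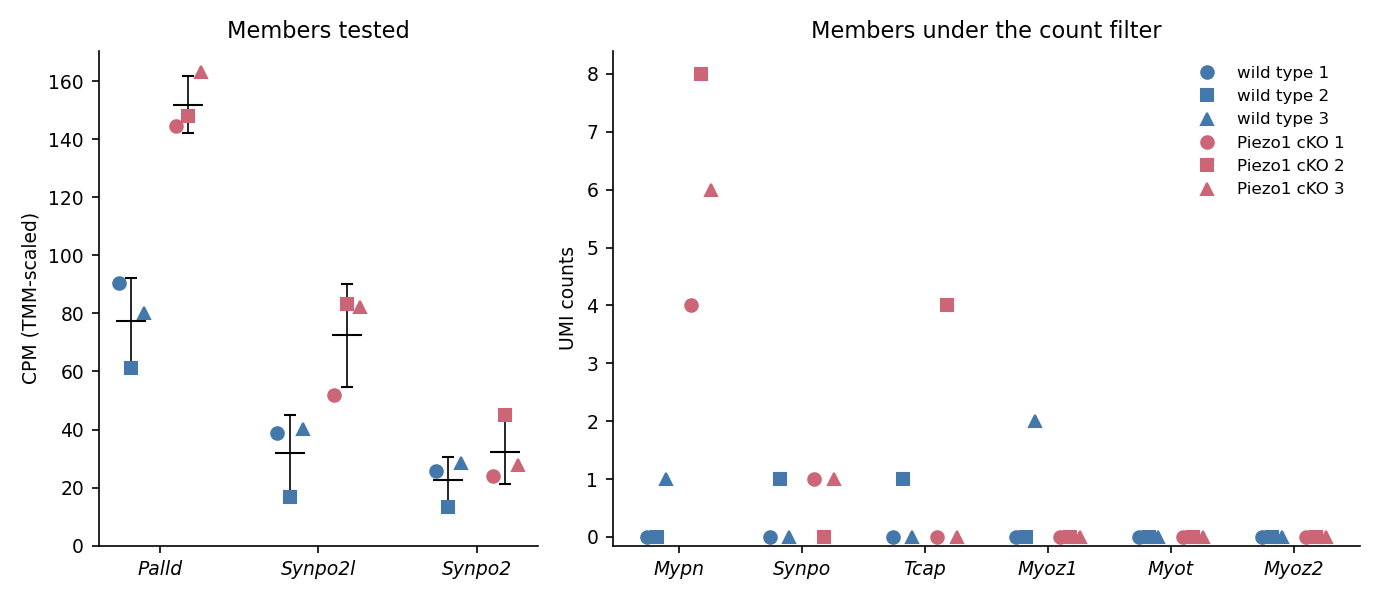
Levels of the 3 tested genes in CPM (left; horizontal lines show the mean and bars 1 SD of 3 libraries) and UMI counts of the 6 genes under the count filter (right), with 1 point per library. *Palld* and *Synpo2l* were above every wild-type library in each cKO library, *Synpo2* overlapped, and *Mypn* had 4 to 8 counts in cKO and 0 or 1 in wild type.

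The annotated starts of the genes give the sequence context of these levels. Promoter windows of 5 of the 9 genes, 8 windows in all, were taken from a RefSeq table. *Myot* and *Synpo* were left out of this search, and *Myoz1* and *Tcap* had no entry in the table. A window ran from 250 bases before to 50 bases after the start on GRCm38.p6. The windows were searched on both strands for the E-box CANNTG, which binds basic helix-loop-helix factors, for its form CAGCTG, which the myogenic factors of that class prefer, for the MEF2 box of the muscle factors of that name, and for the CArG box of the serum response factor. Every CAGCTG is also a CANNTG. The 250 bases before the start are shown for the windows of *Synpo2l*, *Synpo2* and *Myoz2*, which hold a MEF2 box, and for a window of *Palld*, which does not. Capitals mark the CAGCTG and MEF2 matches, and all sequences read 5′ to 3′ on the minus strand. For *Myoz2*, the last 28 bases before the RefSeq start lie in exons of GENCODE transcripts, which begin further upstream, and these bases hold its CAGCTG and part of its MEF2 match. They were kept because the RefSeq start was used for all windows. The sequences lie at chr14:20668355-20668604 (*Synpo2l* start 1), chr14:20664575-20664824 (*Synpo2l* start 2), chr3:123236150-123236399 (*Synpo2*), chr3:123034988-123035237 (*Myoz2*) and chr8:61591140-61591389 (*Palld* start 3).
Synpo2l start 1: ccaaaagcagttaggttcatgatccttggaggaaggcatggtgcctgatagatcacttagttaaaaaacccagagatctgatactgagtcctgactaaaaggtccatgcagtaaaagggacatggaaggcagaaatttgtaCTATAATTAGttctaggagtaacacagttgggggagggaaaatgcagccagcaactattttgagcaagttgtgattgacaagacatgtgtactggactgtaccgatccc
Synpo2l start 2: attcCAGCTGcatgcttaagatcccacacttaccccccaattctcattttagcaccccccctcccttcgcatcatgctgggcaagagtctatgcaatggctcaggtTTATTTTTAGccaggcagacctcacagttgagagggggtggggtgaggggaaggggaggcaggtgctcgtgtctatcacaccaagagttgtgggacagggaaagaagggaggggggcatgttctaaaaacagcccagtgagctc
Synpo2: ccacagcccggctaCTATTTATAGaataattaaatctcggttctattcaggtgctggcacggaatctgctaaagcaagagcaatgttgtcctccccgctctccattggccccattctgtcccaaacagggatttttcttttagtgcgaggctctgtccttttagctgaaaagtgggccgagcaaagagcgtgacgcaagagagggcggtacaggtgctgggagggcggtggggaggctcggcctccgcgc
Myoz2: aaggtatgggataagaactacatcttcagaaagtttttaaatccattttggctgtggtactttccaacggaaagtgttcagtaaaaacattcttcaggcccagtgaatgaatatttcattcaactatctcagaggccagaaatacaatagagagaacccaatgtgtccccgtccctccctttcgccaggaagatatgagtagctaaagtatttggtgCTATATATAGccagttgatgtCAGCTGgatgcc
Palld start 3: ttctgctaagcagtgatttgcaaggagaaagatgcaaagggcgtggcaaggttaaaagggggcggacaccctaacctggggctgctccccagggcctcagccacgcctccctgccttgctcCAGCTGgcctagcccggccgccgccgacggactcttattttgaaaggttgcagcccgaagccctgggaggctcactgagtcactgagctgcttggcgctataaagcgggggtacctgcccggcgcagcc

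A MEF2 box was present in both windows of *Synpo2l*, in that of *Synpo2* and in that of *Myoz2*. It lay at positions -109 to -100 and -144 to -135 from the 2 starts of *Synpo2l*, at -236 to -227 in *Synpo2* and at -33 to -24 in *Myoz2*. It was not found in the 3 windows of *Palld* or in the window of *Mypn*. The form CAGCTG occurred in *Palld* start 1 (-70 to -65), *Palld* start 3 (-129 to -124), *Synpo2l* start 2 (-246 to -241 and 4 to 9) and *Myoz2* (-12 to -7). No CArG box was found in the 8 windows. Over all 32851 windows of the table, 3.19% held a MEF2 box, 16.3% CAGCTG, 72.3% CANNTG and 1.63% a CArG box. The match of letters is a description of the window and not a binding site. *Myoz2* carried both kinds of match and had no count in any library, whereas *Palld* carried no MEF2 box and was detected in every library.

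**Figure D2:**
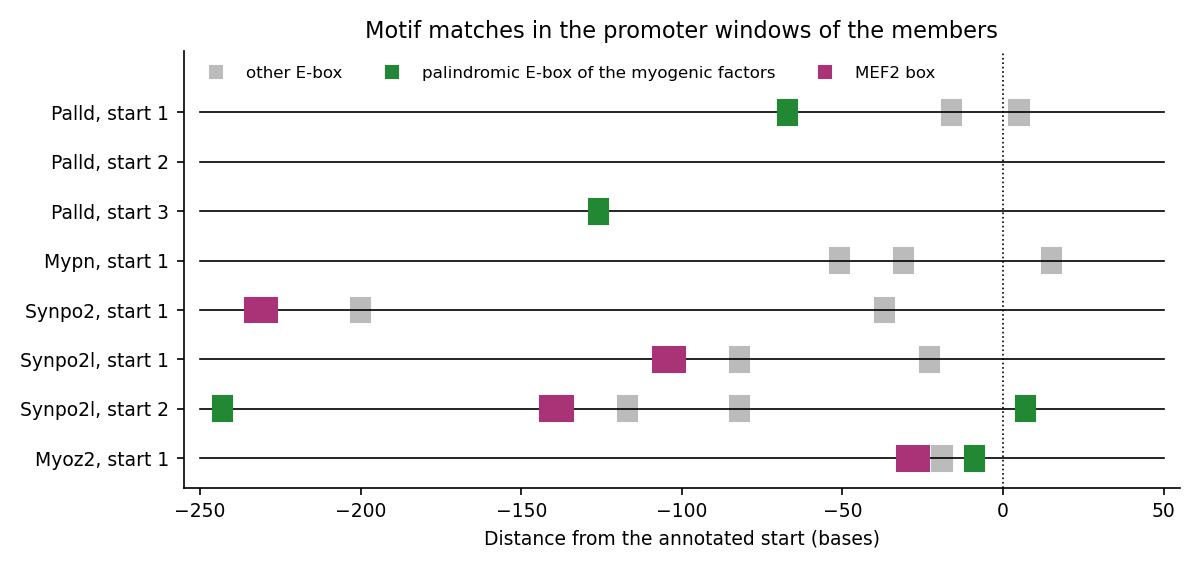
Matches of the E-box (grey), its palindromic form (green) and the MEF2 box (purple) in the 8 promoter windows, by distance in bases from the annotated start (dotted line). The MEF2 box appears in the *Synpo2l*, *Synpo2* and *Myoz2* windows and in no window of *Palld* or *Mypn*.

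*Palld*, the member found outside as well as inside the sarcomere, was 1.98-fold more abundant in *Piezo1* cKO by the fitted difference. Its counts were 63, 55 and 68 in wild type 1 to 3 and 114, 112 and 123 in *Piezo1* cKO 1 to 3. The corresponding levels were 90.6, 61.3 and 80.3 CPM and 144, 148 and 163 CPM. All cKO libraries lay above all wild-type libraries, and the cKO libraries lay closer together than the wild-type libraries. The mean level was 77.4 ± 14.8 CPM (SD, n = 3) in wild type and 152 ± 9.83 CPM (SD, n = 3) in cKO, a log2 fold change of 0.98 (SE 0.17) in the edgeR fit. The coefficient of variation was 6.48% in cKO, under the 9.27% that counting error alone gives at this depth, and 19.2% in wild type, against 12.7% from counting error. The gene spans chr8:61511433-61902690 on the minus strand (GRCm38, ENSMUSG00000058056.16), with 5 coding transcripts that begin at 5 starts and stop at 3 ends. Counts primed at the poly(A) tail do not tell these starts apart. An antisense gene, 4930512H18Rik, and a processed pseudogene, Gm18066, lie within the span, and the sources used here do not state whether counting used the strand.

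*Mypn*, the striated-muscle paralogue of palladin, was close to absent in wild type and low in cKO. Its counts were 0, 0 and 1 in wild type 1 to 3 and 4, 8 and 6 in *Piezo1* cKO 1 to 3. Every cKO library had more counts than any wild-type library, at a depth where the floor of 3 counts corresponds to between 3.35 and 4.31 CPM per library. The summed counts were 1 and 18, a ratio of 19.1 after scaling with an exact 95% interval of 3.01 to 795, which covers counting error only. *Mypn* was chosen with this contrast known, so the interval is not read as a test. It also leaves out differences between the libraries of a group. The gene did not pass the count filter and was not tested in the main analysis. It lies at chr10:63115795-63203952. Myotilin, the third gene of this family, had 0 counts in all 6 libraries, which allows up to 1.230 CPM over the wild-type libraries and 1.304 CPM over the cKO libraries.

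*Synpo2l*, which encodes the Z-disc protein synaptopodin 2-like, had a larger fitted difference than *Palld* or *Synpo2* over all 6 libraries. With both libraries numbered 2 left out, the log2 fold change was 0.76 for *Synpo2l* and 0.85 for *Palld*. It had 27, 15 and 34 counts in wild type 1 to 3 and 41, 63 and 62 counts in *Piezo1* cKO 1 to 3, or 38.8, 16.7 and 40.1 CPM and 52.0, 83.2 and 82.2 CPM. The groups did not overlap, but the lowest cKO library, cKO 1, stood nearer to wild type 1 and 3 than to the other cKO libraries. The means were 31.9 ± 13.2 CPM (SD, n = 3) and 72.4 ± 17.7 CPM (SD, n = 3), with a log2 fold change of 1.20 (SE 0.25), or 2.30-fold. The spread exceeded counting error in both groups, with a coefficient of variation of 41.2% in wild type and 24.5% in cKO against 19.9% and 13.4% from counting error. Without wild type 2 the log2 fold change was 0.87. Without *Piezo1* cKO 2 or without cKO 3 it was 1.09, and the gene was no longer called. *Synpo2l* spans chr14:20658946-20668354 on the minus strand (ENSMUSG00000039376.13).

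*Synpo2*, which encodes myopodin, did not separate the groups. Its counts were 18, 12 and 24 in wild type 1 to 3 and 19, 34 and 21 in *Piezo1* cKO 1 to 3. The levels were 25.9, 13.4 and 28.3 CPM and 24.1, 44.9 and 27.8 CPM, so wild type 2 was low, cKO 2 was high and the other 4 libraries lay within a few CPM of each other. The means were 22.5 ± 8.02 CPM (SD, n = 3) and 32.3 ± 11.1 CPM (SD, n = 3), with a log2 fold change of 0.53 (SE 0.30). When both libraries with the number 2 were left out, the value was -0.07. The gene lies at chr3:123076519-123236149 on the minus strand and overlaps several predicted genes, among them Gm43744 on the opposite strand.

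*Synpo*, the family member best known from the cytoskeleton of kidney podocytes and dendritic spines, was at the limit of detection. It had 1 count in wild type 2, 1 in *Piezo1* cKO 1, 1 in cKO 3 and 0 in the other 3 libraries. No fold is given, because both groups were under the floor of 3 counts.

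The myozenins and telethonin, which belong to the mature Z-disc, were likewise almost undetected. *Myoz1* had 2 counts, both in wild type 3, and *Myoz2* had none in any library. *Tcap* had 1 count in wild type 2 and 4 counts in *Piezo1* cKO 2, with 0 in the other 4 libraries. The ratio of the summed *Tcap* counts, cKO over wild type, was 4.24, with an exact 95% interval of 0.420 to 209. This interval includes no difference, covers counting error only and is likewise not read as a test. All *Tcap* counts in the cKO group came from cKO 2, the library with the highest level of *Myog*. At these counts, no difference in the myozenins was detected, which does not show that there was none.

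In the genome, each synaptopodin gene has a myozenin gene beside it on the same strand with no coding gene between them. *Synpo2l* lies 2.4 kb from *Myoz1*, *Synpo2* lies 41.5 kb from *Myoz2*, and *Synpo* lies 2.2 kb from *Myoz3*. In the first 2 pairs, nearly all counts came from the synaptopodin gene. *Synpo2l* had 76 counts in the wild-type group and 166 in the cKO group where *Myoz1* had 2 and 0, and *Synpo2* had 54 and 74 where *Myoz2* had 0 and 0. *Myoz3* had no count.

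In the fit over all 8551 genes tested, 2 of the 9 genes were called by edgeR (quasi-likelihood test, Benjamini-Hochberg adjustment, adjusted p under 0.05), both higher in cKO, namely *Palld* and *Synpo2l*. Across all genes tested, 0.784% were called in either direction and 0.468% were called higher. Among the 3 members tested, the groups did not overlap for *Palld* and *Synpo2l*, against 8.2% of the tested genes with cKO above wild type. Together with *Mypn*, the groups did not overlap for 3 of the 7 members with a count in any library, against 6.13% of all genes with such a count. Since the genes were chosen with this contrast known, nothing is read from these shares.

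**Figure D3:**
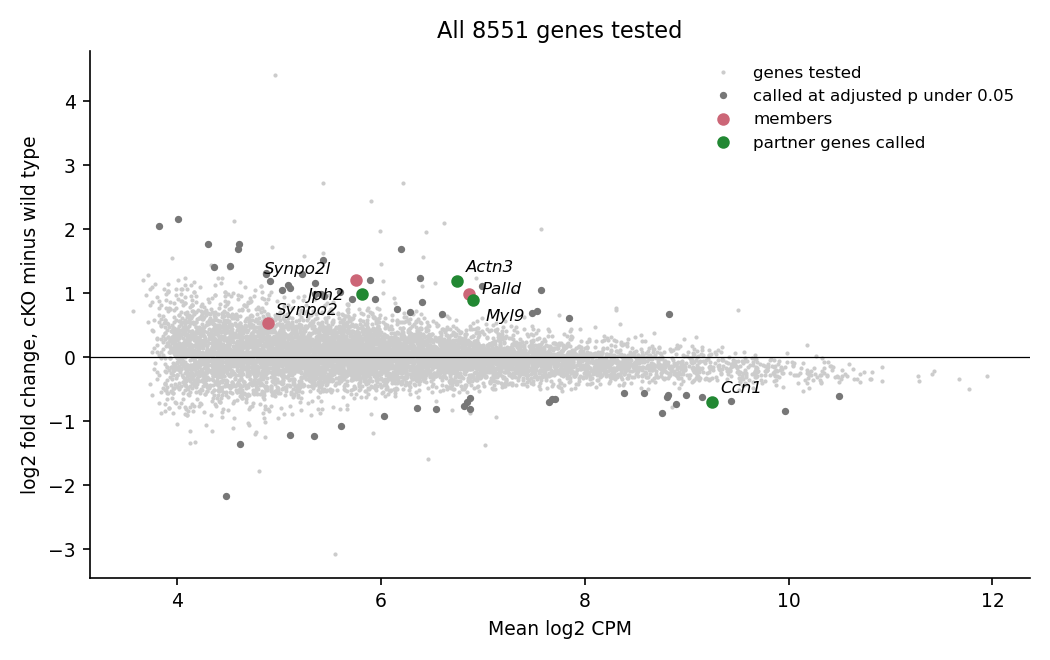
Log2 fold change (cKO minus wild type, edgeR) against mean log2 CPM for the 8551 genes tested, 1 point per gene. *Synpo2l* (1.20) and *Palld* (0.98) are among the called genes and *Synpo2* (0.53) is not. The partner genes called are *Actn3*, *Jph2*, *Myl9* and *Ccn1*.

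The libraries of a group were not alike in differentiation genes. *Myog*, which encodes the differentiation factor myogenin, was at 57.5, 3.35 and 53.1 CPM in wild type 1 to 3 and at 79.9, 268 and 122 CPM in *Piezo1* cKO 1 to 3. Wild type 2 was the lowest and cKO 2 the highest of the 6 libraries. The same library, wild type 2, was also the lowest for *Palld*, *Synpo2* and *Synpo2l*, and cKO 2 was the highest for *Synpo2* and *Synpo2l*, while *Palld* was highest in cKO 3. Within the wild-type group, the highest library exceeded the lowest by 1.48 times for *Palld*, 2.12 times for *Synpo2* and 2.40 times for *Synpo2l*, against 17.2 times for *Myog*. Within cKO the same ratios were 1.13, 1.86, 1.60 and 3.36. *Palld* varied less between the cKO libraries than most genes, since 13.2% of 8549 genes had a smaller range, while the share was 79.2% for *Synpo2l* and 89.8% for *Synpo2*.

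Over the 6 libraries, the log2 CPM of *Synpo2l* and *Myog* had a Pearson r of 0.97, that of *Synpo2* and *Myog* 0.95, and that of *Palld* and *Myog* 0.86. As deviations from the group means the values were 0.95, 0.95 and 0.83. With *Pax7*, the marker of the undifferentiated MuSC, r was -0.76 for *Synpo2l*, -0.88 for *Synpo2* and -0.63 for *Palld*, and on deviations from the group means it was -0.65, -0.84 and -0.46. With *Myod1*, the r of *Palld* changed sign between the measures, from -0.36 to 0.36, and that of *Synpo2l* went from -0.44 to -0.08 and that of *Synpo2* from -0.53 to -0.37. With the muscle gene *Actn3*, r was 0.92 for *Synpo2l*, 0.75 for *Synpo2* and 0.94 for *Palld*. On deviations it was 0.79, 0.86 and 0.50. With the muscle gene *Acta1*, r was 0.88, 0.76 and 0.87 in the same order, and on deviations 0.60, 0.77 and 0.15. These are descriptions of 6 points that share their libraries and depth. How far the share of differentiating cells in each library accounts for the levels of the 3 genes was not tested.

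**Figure D4:**
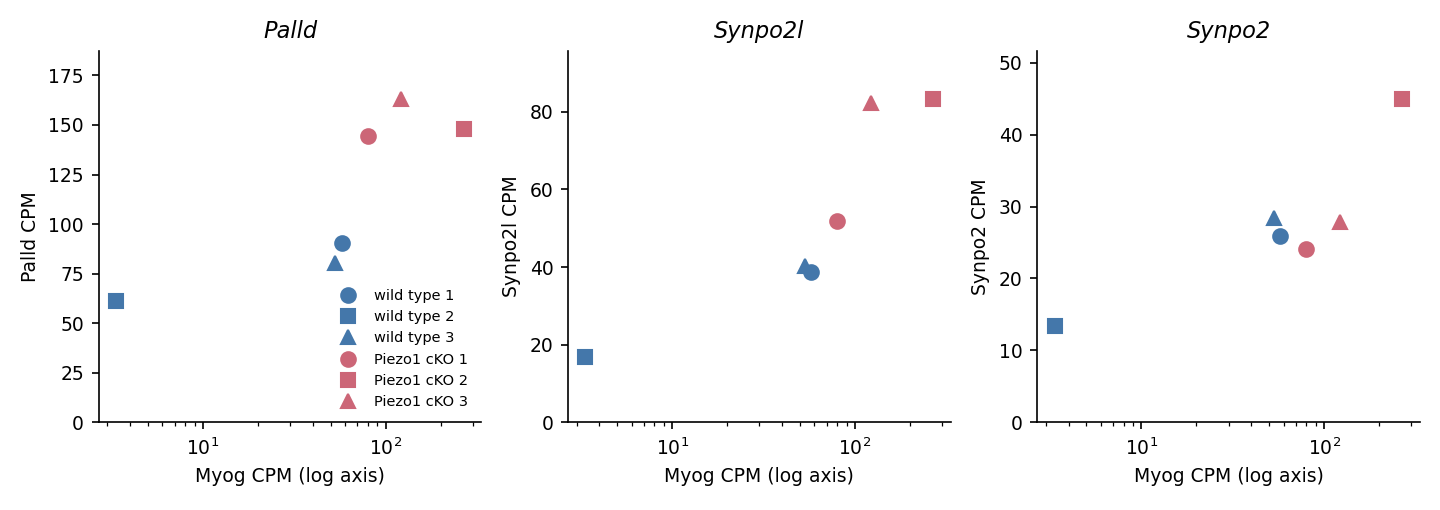
CPM of *Palld*, *Synpo2l* and *Synpo2* against CPM of *Myog* (log axis), 1 point per library. Wild type 2, with 3.35 CPM of *Myog*, is the lowest point in each panel, and *Palld* in the cKO libraries lies between 144 and 163 CPM while *Myog* spans 79.9 to 268 CPM.

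By the same measure, the 5 tested genes most like *Palld* over the 6 libraries were *Dlx2*, *Lamb2*, *Adra1b*, *Rragc* and *Dip2a* (r from 0.98 to 0.99). Those most like *Synpo2l* were *Fam20c*, *Dynap*, *Tusc2*, *Lrp12* and *Tmem119* (0.99 each), and those most like *Synpo2* were *C1qtnf3*, *Ece1*, *Acot13*, *Retreg1* and *Fbxo28* (0.98 to 0.99). The 3 lists had no gene in common. On deviations from the group means the lists were different again, with *Txndc15*, *Mtch2*, *Prmt2*, *Gabarap* and *Kcnn4* for *Palld*, *Gm14494*, *Kif18b*, *Pak1ip1*, *Polr3k* and *Rpl19-ps7* for *Synpo2l*, and *Pemt*, *Tnik*, *Sumf1*, *Klhl24* and *Tango2* for *Synpo2*. With 6 libraries and 8548 genes compared, high values of r occur for many genes, and nothing about common control is read from them.

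The partners of the members were then examined in 5 lists of 89 genes, of which 64 were tested and 4 were called by edgeR (Benjamini-Hochberg adjustment), 3 higher and 1 lower in cKO. Among the 23 Z-disc partners, 14 were tested, 10 of them had positive and 4 negative fold changes, and 2 were called higher. The median log2 fold change was 0.41, while over all genes tested it was 0.0021. *Actn3*, the fast-fibre alpha-actinin to which palladin-family and myozenin proteins bind, had 42, 44 and 70 counts in wild type 1 to 3 and 106, 125 and 107 counts in *Piezo1* cKO 1 to 3, without overlap. Its log2 fold change was 1.20 (SE 0.18, adjusted p = 1.02e-05 in edgeR). It was called with any 1 library left out. *Jph2*, which encodes a junctophilin that couples the surface membrane to the sarcoplasmic reticulum, also rose, by 0.99 on the log2 scale (SE 0.24, adjusted p = 0.0237 in edgeR). Its log2 fold change was 0.68 without wild type 2 and 0.93 without *Piezo1* cKO 2, and it was called in neither case. Limma-voom with cyclic loess normalisation and the fit with a replicate block did not call *Jph2* either, and DESeq2 gave it no adjusted p. All 3 called *Actn3*. *Xirp1*, which encodes an actin-binding repeat protein, had a log2 fold change of 0.72 (SE 0.20, adjusted p = 0.0561 in edgeR) without overlap, and was called in some other edgeR fits, among them those with DESeq2 size factors, with total counts only and without the filter. *Ldb3* was called without the filter and *Neb* without *Piezo1* cKO 1. The 3 most abundant genes of this list were not called, with values of -0.32 for *Ankrd1*, 0.10 for *Des* and -0.12 for *Cryab*.

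The actin bundling and stress fibre partners are the company of palladin outside the sarcomere. None of 19 tested genes was called by edgeR or by limma-voom, and 6 had an unadjusted p under 0.05 in edgeR. The share called over all genes tested was 0.784%, so a list of this size does not stand apart by having no call. DESeq2 gave an adjusted p for 16 of the 19 and called none of these. Other edgeR fits called *Pls3* (log2 fold change 0.44 over all 6 libraries) without wild type 3 and *Actn1* (-0.46) without *Piezo1* cKO 1, and for neither gene did the groups overlap. There were 10 positive and 9 negative fold changes, with a median of 0.02 on the log2 scale. The most abundant were profilin 1 (*Pfn1*, -0.37), alpha-actinin 4 (*Actn4*, -0.16) and filamin A (*Flna*, -0.05). Of the calcineurin partners, which bind or answer the phosphatase that myozenins hold at the Z-disc, 7 of 10 were tested and none was called by edgeR or limma-voom, with 1 at an unadjusted p under 0.05 in edgeR and a median log2 fold change of 0.11. DESeq2 gave an adjusted p for 1 of the 7 and did not call it. Its most abundant genes were *Ppp3ca* (-0.04), *Ppp3r1* (0.06) and *Rcan1* (-0.06), the first 2 of which encode subunits of calcineurin.

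Of the serum response factor and its actin targets, 14 of 18 genes were tested, 1 was called higher and 1 lower, with a median of 0.08. *Myl9*, a myosin regulatory light chain of non-muscle and smooth muscle cells, rose by 0.89 on the log2 scale (SE 0.20, adjusted p = 0.0229 in edgeR), although its levels overlapped between the groups. *Ccn1*, an extracellular matrix protein gene that responds to serum response factor and to YAP, had 404, 790 and 657 counts in wild type 1 to 3 and 430, 282 and 352 counts in *Piezo1* cKO 1 to 3. It fell by 0.70 on the log2 scale (SE 0.15, adjusted p = 0.00591 in edgeR), without overlap between the groups. The calls depended on single libraries. *Myl9* had a log2 fold change of 0.77 without wild type 3 and 0.81 without *Piezo1* cKO 2, and *Ccn1* one of -0.57 without cKO 2 and -0.71 without cKO 3, and neither was called then. The other tools named partly other genes of the list. DESeq2 called *Acta1* (higher) and *Ccn1* (lower), and limma-voom called *Acta1*, *Actc1*, *Myl9* and *Tpm2*, all higher. In other edgeR fits, *Ccn2* (log2 fold change -0.82 over all 6 libraries) was called lower. These were among others the fits without the filter, without wild type 1 and without wild type 2. *Acta1* was called higher with the replicate block and without *Piezo1* cKO 1 or 2. *Acta1* and *Actc1* were called higher with both libraries numbered 2 left out, and *Cnn2* (0.43) without wild type 3. *Acta1*, the skeletal muscle actin gene, had 46, 57 and 80 counts in wild type 1 to 3 and 133, 353 and 205 counts in *Piezo1* cKO 1 to 3, without overlap, with a log2 fold change of 2.01 (SE 0.49, adjusted p = 0.241 in edgeR). The most abundant genes of the list were *Actb* (-0.33), *Tpm1* (-0.08) and *Tagln2* (-0.16), none of which was called.

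Of the 15 differentiation genes, 10 were tested, 8 had positive and 2 negative fold changes, and none was called by edgeR, with 4 at an unadjusted p under 0.05. DESeq2 gave an adjusted p for 7 of the 10 and called none of these. Other edgeR fits did call genes of this list, namely *Mymk*, *Myog* and *Tnnt1* with both libraries numbered 2 left out, *Mymk* and *Tnnt3* without wild type 2, and *Myh3*, *Mymk*, *Mymx* and *Tnnt3* without the filter. Limma-voom with cyclic loess normalisation called 4, *Mymk*, *Myog*, *Tnnt1* and *Tnnt3*. The groups did not overlap, with cKO higher, for 5 of these 10, against 8.2% of all genes tested. *Myog* had a log2 fold change of 2.09 with an SE of 0.89 (adjusted p = 0.468 in edgeR), *Myod1* of -0.15 and *Pax7* of -0.64 (adjusted p = 0.481 in edgeR). The most abundant of the list after *Myod1* were *Tnnt2* (0.16) and *Mef2a* (0.45). *Myh3*, the embryonic myosin heavy chain, had 1, 0 and 0 counts in wild type 1 to 3 and 9, 35 and 4 counts in *Piezo1* cKO 1 to 3 and was under the filter.

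**Figure D5:**
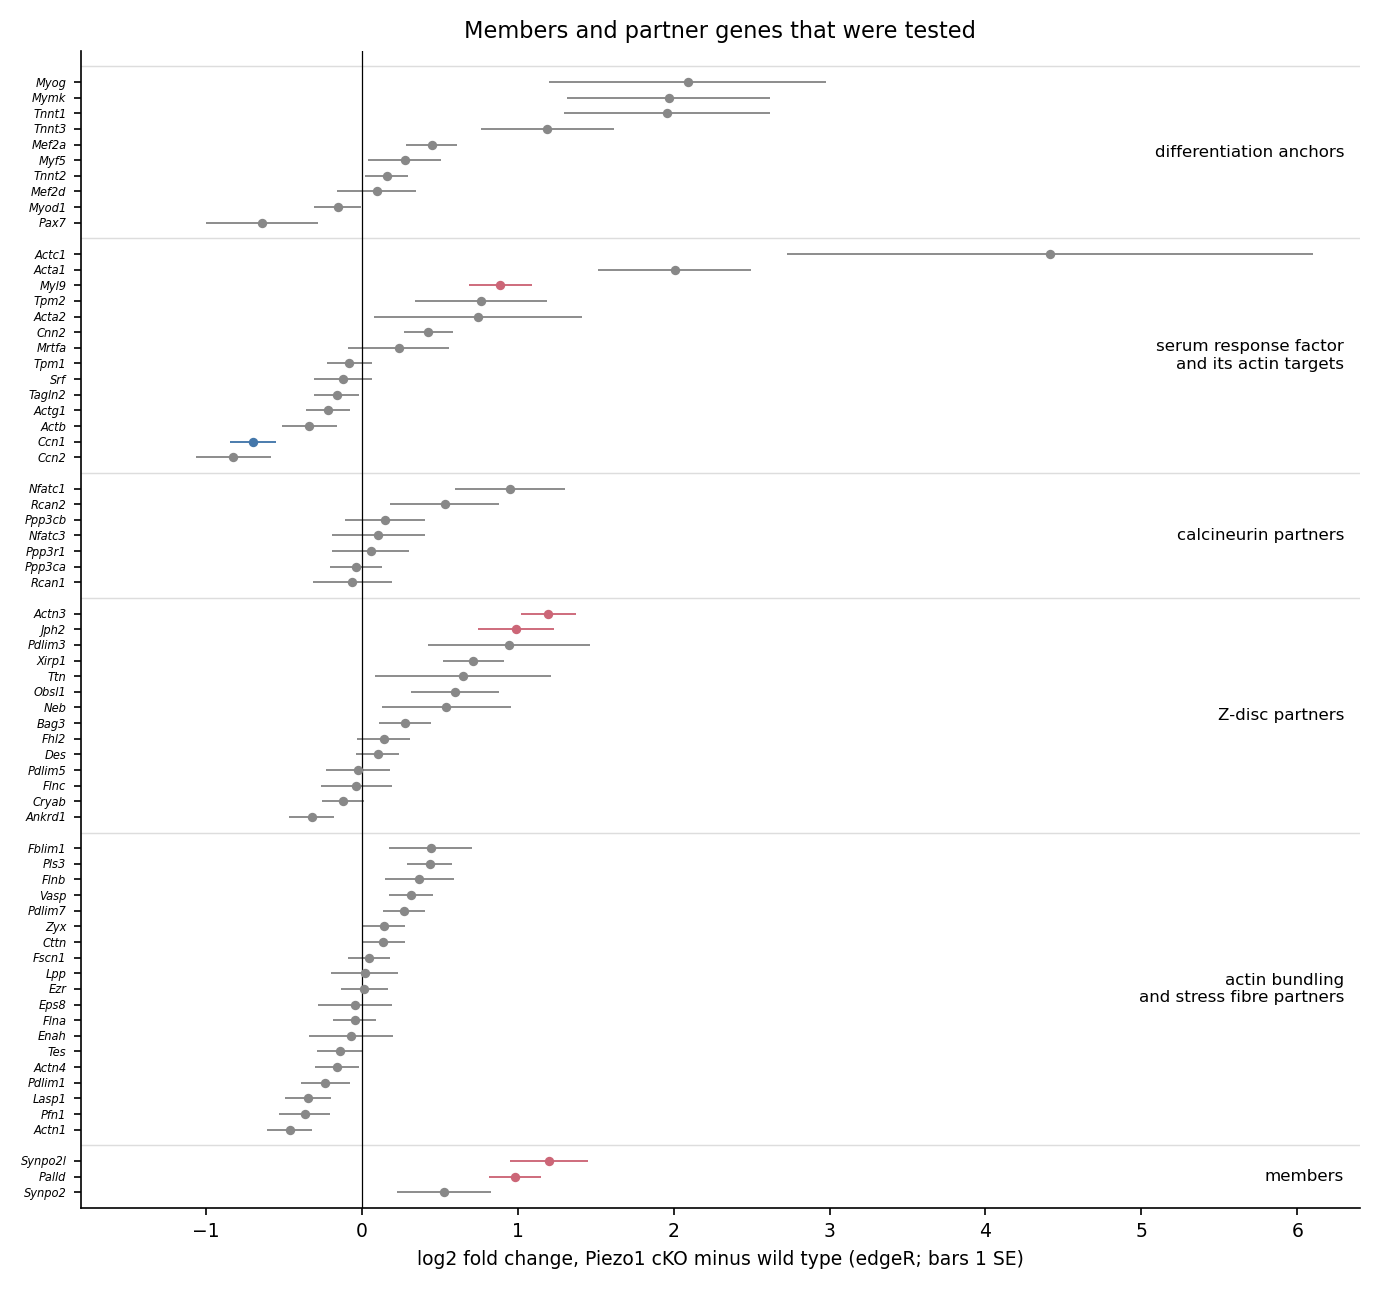
Log2 fold changes (cKO minus wild type, edgeR, bars 1 SE) of the 3 tested members and the 64 tested partner genes by list, with called genes in red (higher) or blue (lower). Above 0 lie 10 of 19 stress fibre partners, 10 of 14 Z-disc partners and 5 of 7 calcineurin partners. So do 7 of 14 serum response factor genes and 8 of 10 differentiation genes, and the lists were not compared by a test.

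The targeted gene did not separate the groups. *Piezo1* had 11, 5 and 6 counts in wild type 1 to 3 and 7, 12 and 9 counts in *Piezo1* cKO 1 to 3, with a log2 fold change of 0.42 (SE 0.46, adjusted p = 0.791 in edgeR), so its counts were not lower in the libraries labelled cKO. The study deleted *Piezo1* by Cre-loxP recombination of a floxed allele, and its main text does not name the exons removed. Priming at the poly(A) tail places counts near the transcript end, but the positions of the reads were not examined here. Whether the counts come from outside the deleted part, and so whether they can check the labels, was not tested. The study measured *Piezo1* in control and cKO MuSCs by RT-qPCR, apart from these counts.

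The sorted population was checked against markers of the cells it could hold. The 6 MuSC and myoblast markers summed to 2079, 1917 and 2064 CPM in wild type 1 to 3 and to 2140, 1632 and 1899 CPM in *Piezo1* cKO 1 to 3, led by *Myod1*. None of them was called by edgeR or limma-voom, and DESeq2 gave an adjusted p for 4 of the 6 and called none of these. In edgeR, 2 had an unadjusted p under 0.05, both without overlap between the groups. *Cdh15*, which encodes M-cadherin, had a log2 fold change of 0.53 (SE 0.16, adjusted p = 0.118 in edgeR), and *Vcam1*, which encodes the surface marker of the sort, had -0.45 (SE 0.16, adjusted p = 0.185 in edgeR). The smooth muscle and pericyte list, of interest because *Synpo2* and *Palld* are expressed in such cells, summed to 670, 463 and 584 CPM and to 636, 590 and 701 CPM. Its most abundant gene was *Des*, which muscle cells also express, and the defining gene *Myh11* had 1 count in all libraries together. Of the 2 genes of the list that were tested, none was called by edgeR or limma-voom, DESeq2 gave 1 an adjusted p and did not call it, and 1 had an unadjusted p under 0.05 in edgeR. This was *Cspg4*, with 28, 25 and 25 counts in wild type 1 to 3 and 39, 32 and 54 counts in *Piezo1* cKO 1 to 3, without overlap, and a log2 fold change of 0.76 (SE 0.25, adjusted p = 0.143 in edgeR). Among the genes under the filter, the pericyte gene *Rgs5* had 0, 0 and 1 counts against 2, 4 and 6, also without overlap, and *Notch3* had 3, 4 and 7 against 6, 12 and 11. *Pdgfrb*, also under the filter, had 3, 3 and 10 counts against 2, 7 and 3. The fibroblast list, led by *Col3a1*, summed to 198, 200 and 350 CPM and to 285, 308 and 269 CPM, and 1 of its 6 genes was called, *Dcn*, with 18, 23 and 37 counts in wild type 1 to 3 and 8, 5 and 3 counts in *Piezo1* cKO 1 to 3. *Dcn*, which encodes the matrix proteoglycan decorin, fell by 2.17 on the log2 scale (SE 0.38, adjusted p = 0.000387 in edgeR). Limma-voom called it too, and DESeq2 gave it no adjusted p. The other tested gene, *Col3a1*, had a log2 fold change of 0.41 (SE 0.16, adjusted p = 0.265 in edgeR). Under the filter, *Pdgfra* had 4, 3 and 8 counts in wild type 1 to 3 and 1, 1 and 3 in *Piezo1* cKO 1 to 3, *Col1a1* had 1, 7 and 17 against 8, 3 and 2, and *Lum* had 4, 1 and 0 against 1, 0 and 1. *Ly6a*, which encodes the Sca1 against which the cells were sorted, had 2, 2 and 3 counts in wild type 1 to 3 and 5, 8 and 9 counts in *Piezo1* cKO 1 to 3, without overlap and under the filter. The endothelial list, led by *Tek*, lay between 1.18 and 18.6 CPM per library and the blood list, led by *Cd68*, between 8.87 and 15.6 CPM, with 3 of 4 and 2 of 5 genes in the table and 0 tested in either. The part of other cell types in the levels of *Palld*, *Synpo2l* and *Synpo2* was not tested.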

How the data were processed

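The authors reverse transcribed total RNA with barcoded oligo-dT primers, mapped the reads to GRCm38 with STAR 2.7.9a, assigned them to genes with featureCounts 2.0.1 and counted UMIs with UMI-tools 1.1.1, with versions as in the submitters' processing notes. The deposited values are UMI counts per gene, not normalised. The count table was tested with edgeR 4.0.16 in R 4.3.3 (TMM normalisation, filterByExpr with a minimum count of 10, robust quasi-likelihood fit, Benjamini-Hochberg adjustment over 8551 genes, called at an adjusted p under 0.05), and *Piezo1* was kept regardless of the filter in a fit of its own. CPM are counts over the TMM-scaled sum of the tested genes. The SE was taken from the fold change and the F statistic. Pearson r used log2 CPM with a prior count of 2. Intervals and floors cover counting error only, and the counts allow for PCR copies through the UMIs. Alternatives were DESeq2 1.42.0, limma-voom 3.58.1 with cyclic loess, other scalings and filters, the replicate number as a block, and libraries left out. Only the edgeR fit was tested on simulated counts, with large changes in genes of high count. Smaller changes, genes of low count and the other calculations were not tested in this way.

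The members, lists and tests were chosen with earlier results of these data known. The genes named are all 9 members, *Piezo1*, every list gene called by edgeR, the 3 genes of each list with the highest mean count, *Myog*, *Myod1*, *Pax7* and *Myh3*, and the 5 genes most like each tested member. The genes *Mymk*, *Tnnt1*, *Tnnt3*, *Mymx*, *Pls3*, *Actn1*, *Xirp1*, *Ldb3*, *Neb*, *Acta1*, *Actc1*, *Tpm2*, *Ccn2* and *Cnn2* and the marker genes *Dcn*, *Col3a1*, *Pdgfra*, *Col1a1*, *Lum*, *Ly6a*, *Cdh15*, *Vcam1*, *Tek*, *Cd68*, *Myh11*, *Cspg4*, *Rgs5*, *Notch3* and *Pdgfrb* were named after their values were seen. Positions come from GENCODE M21 (GRCm38), and promoter sequences from RefSeq (GRCm38.p6), matched by symbol for 5 members. *Ckm* and *Myocd* were not analysed here. How the counting treated strand and multi-mapped reads is not given in the sources used here.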

Additional observations from a re-analysis of the deposited data

How the results depend on the processing

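*Palld* was called in all 14 other fits, with log2 fold changes from 0.838 to 1.104, and *Synpo2l* in 10 of 14, from 0.76 to 1.43. *Synpo2* was called in none, from -0.07 to 0.75, and was negative only with both libraries numbered 2 left out. The number of members called, 2, was 1 (*Palld*) with both libraries numbered 2 left out and with DESeq2, which gave *Synpo2l* no adjusted p, and ranged from 1 to 2 with 1 library left out. Without the filter it was 3, with *Mypn* added. Of all genes, 67 were called, against 129 without the filter, 27 by DESeq2 and 124 at an adjusted p under 0.1. With 1 library left out the number was lowest, 6, without *Piezo1* cKO 2 and highest, 174, when *Piezo1* cKO 1 was left out. Of the 67, 59.7% were higher in cKO, against 71.4% of 63 with total counts only and 75.0% of 56 with limma-voom and cyclic loess. The balance turned with DESeq2 (12 higher, 15 lower) and with both libraries numbered 2 left out (22 higher, 25 lower). The paper, which used an earlier DESeq2 version at default settings, counts 15 genes as raised and 12 as reduced. This is the same total as the 27 found here, with the numbers exchanged. The legend of that figure does not state which group was the reference for these counts. For the enriched terms of the same figure, it counts genes raised in *Piezo1* deficiency. Why the directions differ, and whether the same genes are meant, was not tested. The partner genes called, 4, became 11 without the filter, 7 with both libraries numbered 2 left out and 9 with cyclic loess, and with 1 library left out they numbered from 2 (no *Piezo1* cKO 2) to 7 (no *Piezo1* cKO 1). The log2 fold change of *Piezo1* turned to -0.093 with both libraries numbered 2 left out. With the replicate number as a block (replicate block), 46 genes, 2 members and 3 partners (*Acta1*, *Actn3* and *Myl9*, without *Jph2* and *Ccn1*) were called and *Piezo1* was at 0.42. Deviations of same-numbered libraries had correlations of -0.143, -0.203 and 0.0121, so these libraries were not alike by this measure. How the libraries were numbered is not stated in the sources used here, and such values cannot exclude a pairing. No scaling moved the median of all genes by more than 0.07 on the log2 scale. Depth limits the 6 members with 29 counts in all. Groups of 3 libraries are too few to test for single libraries that stand apart.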
